A study of Homo sapiens with 35 samples.

Results

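Endoplasmic reticulum (ER) stress and chaperone genes were described in HCT116 colorectal carcinoma cells, with 36 genes listed by name and role: chaperones and their co-factors, lectin chaperones, disulfide isomerases, degradation machinery, stress sensors and transcription factors, and translocation and ER exit. For each gene the array row with 1 gene symbol was taken, and where a gene had several such rows, the one with the highest mean over all arrays. Of the 36 listed genes 35 had such a row among the 18404 genes tested. PDIA3, a disulfide isomerase that works with the lectin chaperones, lies only on rows shared with other symbols and has no values here. No measured value was used to choose the genes, although results of these data were known when the list was made. Each value is a log2 expression value of 1 array, and differences are given as log2 fold change ± standard error (SE).

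HCT116 is an established human colorectal cancer line. Its 3 derivatives expressed short hairpin RNAs: shControl has no target, while shCDK8 and shCDK19 each deplete 1 of the paralogous kinases of the Mediator coactivator complex, with 1 hairpin line for each target. The 35 arrays fell into 14 groups in 4 experiments, and the culture medium was McCoy's 5A supplemented with fetal calf serum at 10%. In the glucose experiment (DMEM medium for 24 h) each group had 3 arrays: shControl in high glucose and each of the 3 lines in low glucose. Under normal growth each of the 3 lines had 3 arrays. In the 5FU experiment (12 h) shControl cells had 2 arrays in DMSO and 2 in 5-fluorouracil, and the knockdown lines had 2 each in 5-fluorouracil. In hypoxia (1% O2, 24 h) each line had 2 arrays. Knockdown lines in high glucose or DMSO, and normoxic cells of the hypoxia experiment, were not analysed here. The labels do not say that replicates were separate cultures, so the p-values measure the spread between arrays, which may be technical.

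The ER folds and glycosylates secreted and membrane proteins. When unfolded proteins gather there, the membrane sensors IRE1 (gene ERN1), PERK (gene EIF2AK3) and ATF6 start the unfolded protein response: IRE1 splices the mRNA of the transcription factor XBP1, ATF6 is cut to release a transcription factor, and PERK slows translation and favours ATF4. Chaperones, folding enzymes and ER-associated degradation, which returns misfolded proteins to the cytosol for the proteasome, are the classical targets. Low glucose limits the sugars used for N-glycans, and the main ER chaperones were first known as glucose-regulated proteins.

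The row that holds CDK8 (shared with ADRA1B) had group means of 8.02 to 8.20 in shCDK8 cells and 10.05 to 10.90 in the other lines. CDK19 was at 7.60 in shCDK19 cells under normal growth and at 9.10 in shControl cells there, and it was lower in shCDK19 than in shControl cells in each of the 4 experiments. Within groups the lowest correlation between arrays was 0.976, between the 2 hypoxic shControl arrays, and shCDK8 replicate 1 under normal growth also stood apart from its group (0.987). Array values ran from a shared floor to a shared ceiling, and none of the 35 genes touched either on any array. The epithelial markers EPCAM and KRT8 had means of 11.97 and 13.13, and the summed level of 6 epithelial markers lay between 14.54 and 15.13 on every array. Of the leukocyte and fibroblast markers PTPRC, DCN and LUM stayed at or near the floor, at most 4.62. The other markers of these lists were above it on every array, with means from 6.11 (CD3E) to 10.10 (CD68) for leukocytes and from 6.65 (PDGFRB) to 8.74 (COL1A1) for fibroblasts.

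Low glucose raised most of these genes in shControl cells. All 10 chaperones and co-factors rose, and so did 5 of the 9 degradation genes and 5 of the 6 sensors and transcription factors. Of the 35 genes 27 were higher in low than in high glucose, 1 was lower and 7 did not pass the test (limma, adjusted p under 0.05 over all genes), where 13.9% of all genes tested were called higher and 17.3% lower (31.2% together). The median log2 fold change of the 35 genes was 0.49, against 0.02 over all genes. In 30 of the 35 genes the 3 low glucose and 3 high glucose arrays did not overlap, as in 45.9% of all genes tested, of which 31.2% were called. Leaving out each array of the 2 groups in turn left 28 or 29 genes called.

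**Figure D1:**
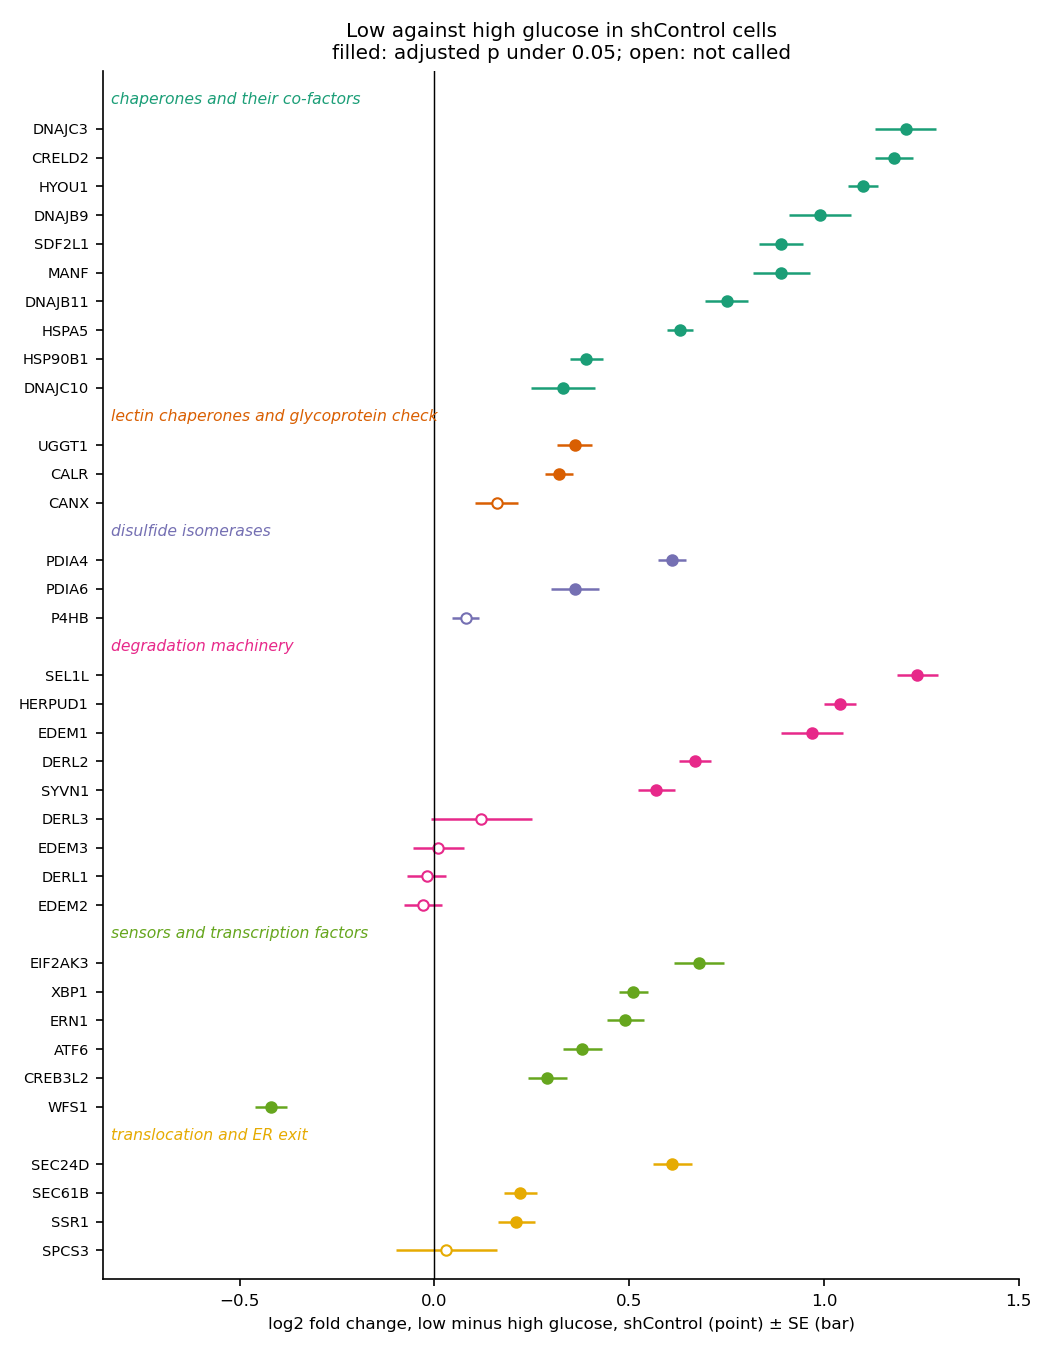
Log2 fold change of low against high glucose in shControl cells (x axis, point ± SE) for the 35 genes in blocks by role (y axis), with filled points for adjusted p under 0.05. SEL1L (1.24), DNAJC3 (1.21) and CRELD2 (1.18) lie farthest right, and WFS1 (-0.42) is the filled point left of 0.

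HSPA5, which encodes BiP, the central chaperone of the ER lumen, was measured at 12.83, 12.81 and 12.87 in high glucose and at 13.42, 13.49 and 13.49 in low glucose. The 2 groups were far apart relative to their spread, and the difference was 0.63 ± 0.034, or 1.55-fold (limma adjusted p = 9.35e-07). HYOU1, a nucleotide exchange factor of BiP, went from 10.75, 10.73 and 10.72 to 11.86, 11.81 and 11.85, a 2.15-fold rise. DNAJC3, a co-chaperone with a J domain that binds BiP, stood at 9.55, 9.61 and 9.63 in high and at 10.78, 10.66 and 10.99 in low glucose. The low glucose arrays of DNAJC3 were more scattered than those of HYOU1, but each was at least 1 log2 unit above every high glucose array. CRELD2, a small ER protein with disulfide isomerase activity, rose from 8.82, 8.92 and 8.85 to 10.11, 9.98 and 10.05 (1.18 ± 0.049).

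The remaining chaperones and co-factors rose as well. DNAJB9, a co-chaperone that also restrains IRE1, rose by 0.99 ± 0.08. MANF, a secreted ER protein that binds BiP, and SDF2L1, a partner of the co-chaperone DNAJB11, each rose by 0.89, and DNAJB11 itself rose by 0.75. The ER member of the HSP90 family, HSP90B1, rose by 0.39 ± 0.042, and DNAJC10, a co-chaperone that reduces disulfides, by 0.33 ± 0.082, the smallest rise in this role. With all 35 arrays in 1 fit DNAJC10 lost its call (limma adjusted p = 0.082).

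Of the 3 lectin chaperone and glycoprotein check genes 2 rose, and of the 3 measured disulfide isomerases 2 rose. UGGT1, which tags unfolded glycoproteins for another folding round, rose by 0.36 ± 0.045 and calreticulin (CALR) by 0.32 ± 0.036, the latter without a call in the fit of all 35 arrays (limma adjusted p = 0.0667). Calnexin (CANX) was 0.16 ± 0.055 higher and did not pass the test (limma adjusted p = 0.053). Among the isomerases PDIA4 rose by 0.61 ± 0.036 and PDIA6 by 0.36 ± 0.062, while P4HB, the classical protein disulfide isomerase, differed by 0.08 ± 0.034 and was not called.

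The degradation genes split. SEL1L, the adaptor of the ubiquitin ligase HRD1, was at 10.06, 10.17 and 10.12 in high and at 11.29, 11.32 and 11.46 in low glucose, the largest change of the 35 genes (1.24 ± 0.053, 2.36-fold, limma adjusted p = 2.66e-07). HERPUD1, a membrane protein of the same complex, went from 11.30, 11.36 and 11.28 to 12.33, 12.38 and 12.34. Neither gene had overlapping arrays, as in 45.9% of all genes tested. EDEM1, which helps to hand over mannose-trimmed glycoproteins, rose by 0.97 ± 0.08, DERL2 by 0.67 ± 0.041 and SYVN1, the gene of HRD1, by 0.57 ± 0.048. The paralogs of EDEM1 and DERL2 did not pass the test: EDEM2 differed by -0.03, EDEM3 by 0.01, DERL1 by -0.02 and DERL3 by 0.12. For EDEM2, EDEM3 and DERL1 the 95% confidence intervals of the difference reached no further than -0.14 and 0.16, whereas that of DERL3 ran from -0.17 to 0.41.

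Among the sensors, EIF2AK3 rose by 0.68 ± 0.064, ERN1 by 0.49 ± 0.048 and ATF6 by 0.38 ± 0.051. The transcription factor XBP1 was at 10.80, 10.81 and 10.80 in high and at 11.33, 11.36 and 11.26 in low glucose (0.51 ± 0.037). These rows do not separate the spliced from the unspliced XBP1 mRNA. CREB3L2, a membrane-bound factor of the ATF6 kind, rose by 0.29 ± 0.05. WFS1, a calcium-handling protein of the ER membrane, was the exception: its values of 10.34, 10.28 and 10.27 in high glucose fell to 9.92, 9.82 and 9.89, a change of -0.42 ± 0.041 (limma adjusted p = 3.17e-05). In the last role SEC24D, a cargo adaptor of COPII vesicles, rose by 0.61 ± 0.05, the translocon subunit SEC61B by 0.22 and the translocon-associated SSR1 by 0.21. The signal peptidase subunit SPCS3 differed by 0.03 ± 0.13 and was not called.

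**Figure D2:**
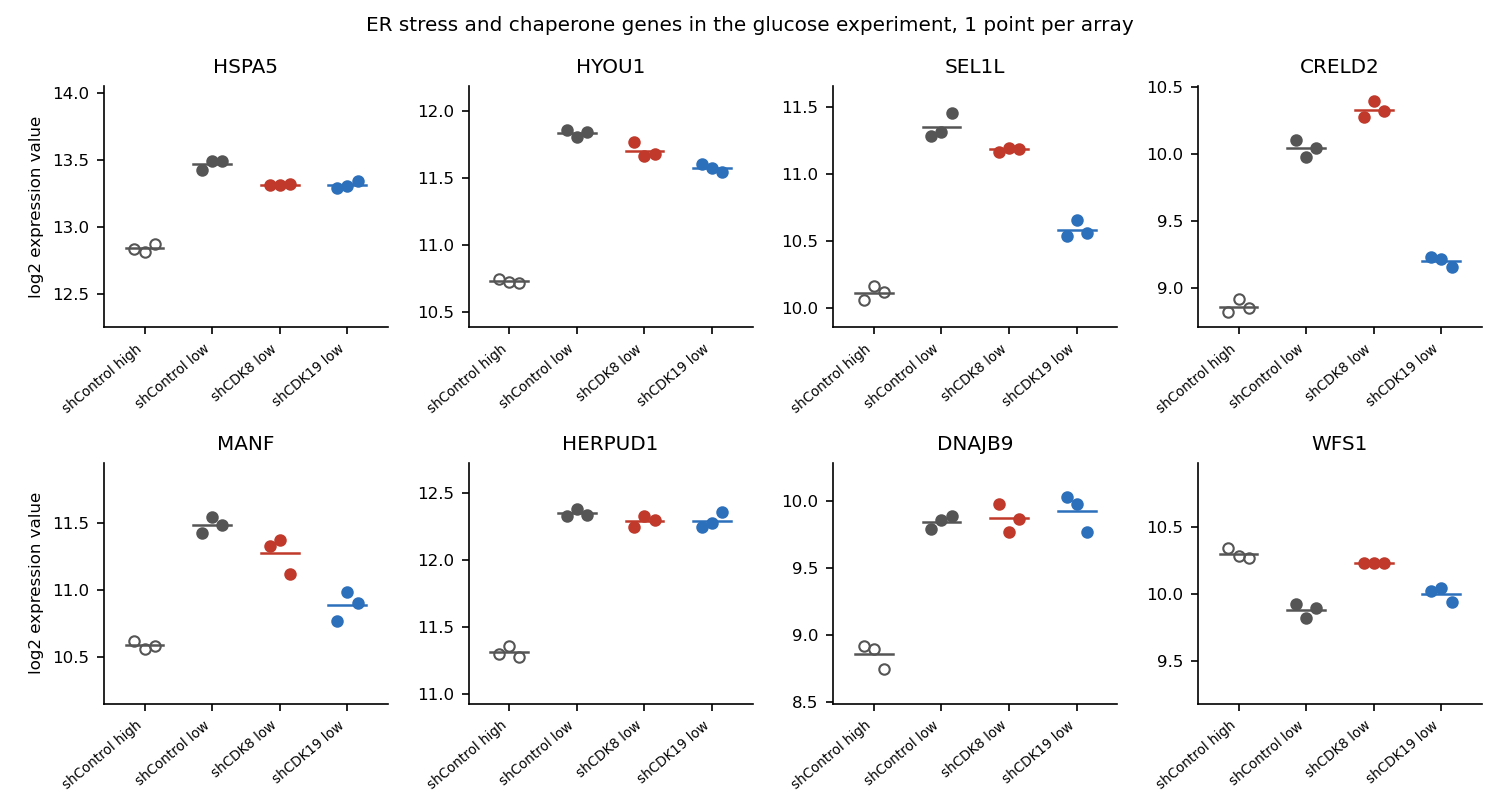
Log2 expression values (y axis, each panel spanning 1.8 log2 units) of 8 of the genes on the 12 arrays of the glucose experiment (x axis, groups), 1 point per array with the group mean as a line. Low glucose arrays lie above the high glucose arrays in each panel but that of WFS1, and shCDK19 arrays lie below shControl and shCDK8 arrays for SEL1L, CRELD2 and MANF.

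Other genes of the same pathways were counted from further lists, where 13.9% of all genes tested were called higher and 17.3% lower in low glucose. Of 16 genes of the PERK and ATF4 branch 13 were higher in low glucose and 0 lower (median 0.86), led by DDIT3, the transcription factor CHOP, at 2.80 ± 0.06 and TRIB3 at 1.66 ± 0.07. Of 40 further folding enzymes and chaperones of the ER 8 were higher and 11 lower (median -0.03), with CRELD1 at 1.09 ± 0.07 and FKBP7 at -0.90 ± 0.09. Among 27 further degradation genes 6 were higher and 4 lower (median 0.02), and UBE2J1, a ubiquitin-conjugating enzyme of the ER, was 0.69 ± 0.04 higher. Further translocation, glycosylation and ER exit genes had 24 of 43 higher and 4 lower (median 0.15). Chaperones of the cytosol went the other way, with 2 of 19 higher and 13 lower (median -0.22), HSPH1 at -0.80 ± 0.06 and HSP90AA1 at -0.56 ± 0.06. Beside these changes the summed level of 5 leukocyte markers went from between 9.61 and 9.69 to between 10.49 and 10.67, with CD68, which lysosomes of many cell types also carry, 1.17 ± 0.07 higher and PTPRC at or near the floor. That of 6 epithelial markers went from between 14.85 and 14.89 to between 14.96 and 15.01, and 3 of these 6 markers were called higher and 0 lower. The part of these shifts in the result was not tested.

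Promoters were read because many of the genes moved together, and 32 of the 36 listed genes had a window in RefSeq (GRCh38.p14) from 250 bases before to 50 bases after a transcription start. Known elements of this response were searched on both strands: the ER stress response element (CCAAT, any 9 bases, then CCACG), its second form (ATTGG, any 1 base, then CCACG), and the core of the unfolded protein response element, TGACGTGG. The first was found in 7 of the 32 genes (CALR, CANX, CRELD2, HSP90B1, HSPA5, PDIA6, XBP1), or 21.9%, against 0.0916% of 27305 genes with a window. The second form was in HERPUD1, HYOU1 and SDF2L1, or 9.38% against 0.0696%, and TGACGTGG was in DNAJC10 and HYOU1, or 6.25% against 0.927%. Both the listed genes and the elements were chosen as known parts of this response. The higher shares are therefore no separate evidence about these genes. A match describes letters, not a bound site. The stretches with matches are shown for HSPA5 (chr9:125241371-125241429, minus strand), XBP1 (chr22:28800583-28800641, minus), CRELD2 (chr22:49918534-49918592, plus), HSP90B1 (chr12:103930196-103930359, plus), HERPUD1 (chr16:56932005-56932055, plus), SDF2L1 (chr22:21642094-21642144, plus) and HYOU1 (chr11:119057254-119057413, minus), all upstream of the annotated gene, on the strand of the gene, with the fixed bases of each match in capitals.
HSPA5: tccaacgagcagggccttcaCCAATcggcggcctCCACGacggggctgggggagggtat
XBP1: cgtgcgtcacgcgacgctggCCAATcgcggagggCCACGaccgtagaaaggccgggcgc
CRELD2: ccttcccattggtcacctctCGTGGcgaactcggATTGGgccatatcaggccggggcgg
HSP90B1: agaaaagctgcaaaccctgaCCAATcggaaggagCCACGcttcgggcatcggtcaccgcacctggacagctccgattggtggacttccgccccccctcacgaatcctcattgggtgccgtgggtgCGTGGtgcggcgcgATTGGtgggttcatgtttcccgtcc
HERPUD1: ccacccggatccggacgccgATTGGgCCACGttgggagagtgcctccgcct
SDF2L1: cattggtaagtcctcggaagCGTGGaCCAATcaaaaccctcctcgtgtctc
HYOU1: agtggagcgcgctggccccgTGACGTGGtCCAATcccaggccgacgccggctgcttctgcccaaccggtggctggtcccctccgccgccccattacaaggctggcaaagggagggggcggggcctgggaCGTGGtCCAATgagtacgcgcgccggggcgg

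HSPA5 and XBP1 carry the first form in the forward direction and CRELD2 carries it reversed (CGTGG before ATTGG), while HSP90B1 has 1 match in each direction. HYOU1 has the second form at 2 places, and the upstream one shares its bases CGTGG with the match to TGACGTGG. Of the 10 genes with either form of the ER stress response element 9 were higher in low glucose, with a median of 0.57 and a range from 0.16 to 1.18, and CANX was not called. Of the 22 genes with a window and neither form 17 were higher and 1 lower, with a median of 0.44, and SEL1L, DNAJC3 and DNAJB9 were among them. Across other tested genes with either form 9 of 26 were higher and 5 lower. Over all genes tested 13.9% were called higher and 17.3% lower, with a median of 0.02. No match says only that these letters are not in the window.

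Knockdown of CDK19 was accompanied by lower levels of many of these genes in low glucose. Against shControl cells in low glucose 19 of the 35 genes were lower in shCDK19 cells and 1 was higher, where 10.8% of all genes tested were called lower and 9.11% higher (19.9% together). Of the 10 chaperones and co-factors 9 were lower, with DNAJB9 the exception, and 5 of the 9 degradation genes were lower. Leaving out each array in turn left 18 to 21 genes called. Because shCDK19 cells in high glucose were not analysed here, a lower starting level and a smaller response cannot be told apart within this experiment.

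CRELD2 showed the largest difference: it was at 9.23, 9.22 and 9.16 in shCDK19 cells and at 10.11, 9.98 and 10.05 in shControl cells, both in low glucose (-0.84 ± 0.049, 1.80-fold lower, limma adjusted p = 2.73e-06). These shCDK19 values were still above the 3 shControl arrays in high glucose, which reached at most 8.92. SEL1L stood at 10.54, 10.66 and 10.56, which is -0.77 ± 0.053 against shControl cells and likewise between the 2 shControl groups. MANF was at 10.77, 10.98 and 10.90 in shCDK19 cells and at 11.42, 11.54 and 11.48 in shControl cells (-0.60 ± 0.073). None of these 3 genes had overlapping arrays in the comparison, as in 33.9% of all genes tested.

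ATF6, at 10.90, 10.91 and 10.89, was -0.53 ± 0.051 against shControl cells and thus below the shControl arrays in high glucose as well, which ran from 10.98 to 11.10. EDEM3, which low glucose did not change in shControl cells, was at 8.71, 8.77 and 8.66 against 9.24, 9.31 and 9.13 (-0.52 ± 0.066). EDEM1 (-0.49), DNAJB11 (-0.45), PDIA4 (-0.44), DNAJC10 (-0.42), DNAJC3 (-0.35) and UGGT1 (-0.32) followed. Several chaperones changed less: HYOU1 by -0.26, HSP90B1 by -0.21, CALR by -0.18 and HSPA5 by -0.16 ± 0.034, with HSPA5 at 13.29, 13.30 and 13.34. SEC61B was the higher gene, at 12.44, 12.36 and 12.36 against 12.17, 12.21 and 12.12 (0.22 ± 0.042).

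HERPUD1 and DNAJB9, although strongly raised by low glucose, were not called in shCDK19 cells. HERPUD1 was at 12.25, 12.28 and 12.36, overlapping shControl cells, with a difference of -0.06 and a 95% interval from -0.15 to 0.04. DNAJB9 differed by 0.08, with an interval from -0.10 to 0.25. SYVN1 differed by -0.04 and CREB3L2 by 0.02, both without a call. Of the 16 genes of the PERK and ATF4 branch 7 were lower and 1 higher in shCDK19 cells, with CHAC1 at -0.55 ± 0.04 and DDIT3 at -0.46 ± 0.06, and 4 were lower and 1 higher in shCDK8 cells, with DDIT3 at -0.46 ± 0.06. Of all genes tested 10.8% were called lower and 9.11% higher in shCDK19 cells, and 10.2% lower and 12.1% higher in shCDK8 cells.

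Knockdown of CDK8 was accompanied by differences in both directions in low glucose. In shCDK8 cells 12 of the 35 genes were lower and 3 higher than in shControl cells, where 10.2% of all genes tested were called lower and 12.1% higher (22.3% together). The largest was SPCS3, whose arrays at 10.56, 11.18 and 10.63 lay below the shControl arrays at 11.29, 11.29 and 11.39 (-0.53 ± 0.13, limma adjusted p = 0.0167). Replicate 2 lay near the shControl arrays and the other two well below them. ATF6 was -0.26 ± 0.051, HSP90B1 and EDEM1 were -0.25 each, PDIA4 was -0.22 and EDEM2 was -0.21. HSPA5 was at 13.31, 13.31 and 13.32, a change of -0.15 ± 0.034, and SEL1L changed by -0.17 ± 0.053 with an adjusted p of 0.0498, a call that held in 4 of 13 alternatives.

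WFS1, CRELD2 and SDF2L1 were the higher genes. WFS1, which low glucose lowered in shControl cells, was at 10.23 on each of the 3 shCDK8 arrays against 9.92, 9.82 and 9.89 (0.35 ± 0.041, limma adjusted p = 0.000156). CRELD2 was at 10.28, 10.40 and 10.32, above every shControl array in low glucose (0.29 ± 0.049), and SDF2L1 was 0.18 ± 0.056 higher. The call of SDF2L1 held in 4 of 13 alternatives (limma adjusted p up to 0.185), and that of CRELD2 in all 13. The count of 15 called genes depended on the arrays and the scaling. It was 7 without shControl replicate 3 (17.6% of all genes) and 8 without shCDK8 replicate 3 (18.3%). Without any other array 10 to 13 remained called (17.5% to 19.9% of all genes). Centring each array on its median left 6 (2 higher, 4 lower), where 18.0% of all genes were called. The counts of 6 to 8 were thus near the share of all genes. Both knockdown lines were compared with the same 3 shControl arrays. Beside these results the summed level of 5 leukocyte markers ran from 11.11 to 11.23 in shCDK8 and from 10.26 to 10.39 in shCDK19 cells in low glucose, with CD68 at 0.70 ± 0.07 and -0.31 ± 0.07 against shControl cells. The summed level of 6 epithelial markers ran from 15.04 to 15.10 and from 15.07 to 15.13. Against shControl cells 2 of these 6 markers were called higher and 2 lower in shCDK8 cells. In shCDK19 cells 3 were higher and 1 lower, where 9.11% of all genes tested were called higher and 10.8% lower. The part of these markers in the results was not tested.

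**Figure D3:**
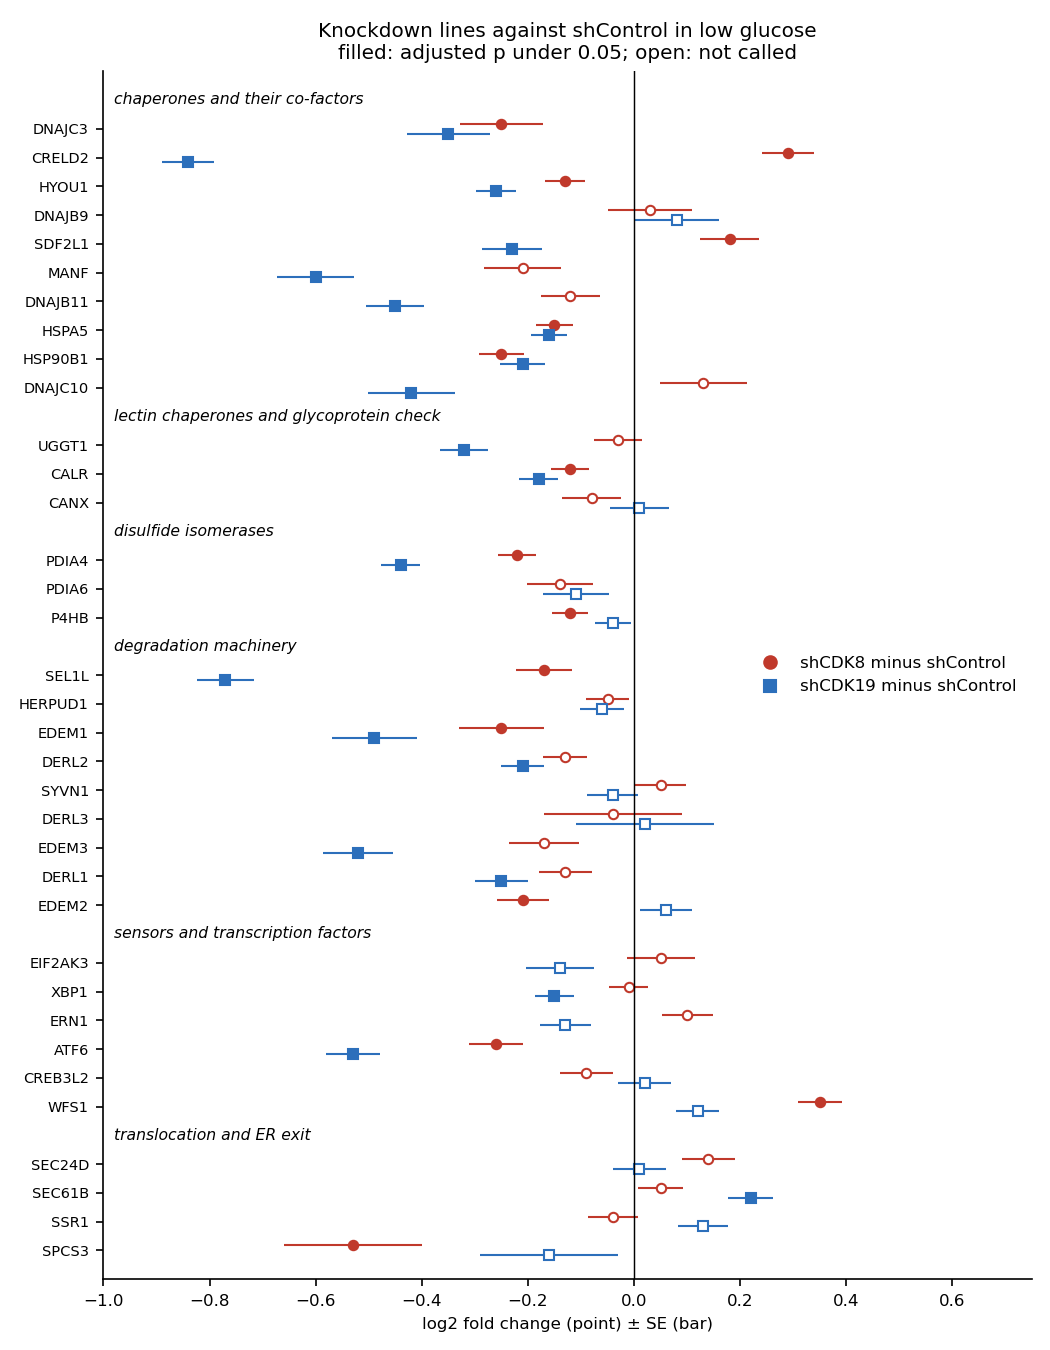
Log2 fold change against shControl cells in low glucose (x axis, point ± SE) for the 35 genes by role (y axis), with shCDK8 as circles and shCDK19 as squares, filled where adjusted p was under 0.05. CRELD2 has filled points on both sides of 0 (0.29 and -0.84), as has SDF2L1 (0.18 and -0.23), whose call in shCDK8 cells held in 4 of 13 alternatives, and the filled squares lie left of 0 but for SEC61B.

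Compared directly in low glucose, 14 of the 35 genes were higher in shCDK8 than in shCDK19 cells and 3 were lower, where 14.7% of all genes tested were called higher and 11.2% lower. CRELD2 differed by 1.13 ± 0.049 (2.19-fold, limma adjusted p = 1.69e-07), SEL1L by 0.60 ± 0.053 and DNAJC10 by 0.55 ± 0.082. SDF2L1 followed at 0.41, MANF at 0.39, EDEM3 at 0.34 and DNAJB11 at 0.33. EDEM2 (-0.26), SEC61B (-0.17) and SSR1 (-0.17) were lower in shCDK8 cells. HSPA5 did not differ beyond its spread (0.00 ± 0.034, interval -0.07 to 0.08), nor did HERPUD1 (0.00 ± 0.041, interval -0.09 to 0.09). Leaving out each array in turn left 15 to 17 genes called.

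Under normal growth 5 of the 35 genes were higher in shCDK8 than in shControl cells and 3 lower, where 11.4% of all genes tested were called higher and 13.5% lower (24.9% together), so the share was near that of all genes. DNAJB9 was at 9.11, 9.12 and 9.36 against 8.60, 8.38 and 8.78 in shControl cells (0.61 ± 0.14, limma adjusted p = 0.018). DNAJC10 was at 10.78, 11.19 and 11.04 against 10.37, 10.55 and 10.51 (0.53 ± 0.11). For both genes the arrays of the 2 lines did not overlap, as in 36.7% of all genes tested. EDEM1 (0.29), XBP1 (0.28) and SEC24D (0.25) were the other higher genes. EDEM2 (-0.40), SPCS3 (-0.40) and ATF6 (-0.37) were lower, and these 3 were also lower in shCDK8 cells in low glucose. The count was 12 without shCDK8 replicate 1, the array that stood apart (36.5% of all genes), and 4 without shControl replicate 1 (17.3%). Beside these changes 4 of 6 epithelial markers were lower and 2 higher in shCDK8 cells under normal growth, with CDH1 at -1.70 ± 0.07, EPCAM at -1.31 ± 0.04 and KRT18 at 0.84 ± 0.06, while their summed level ran from 14.57 to 14.68 against 14.54 to 14.56. Their part in the result was not tested.

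In shCDK19 cells under normal growth 5 of the 35 genes were lower and 0 higher, where 3.40% of all genes tested were called lower and 3.67% higher (7.07% together). In all, 14 of the 35 had an unadjusted limma p under 0.05, as had 3480 of all 18404 genes. ATF6 was at 10.86, 10.83 and 10.79 against 11.21, 11.29 and 11.38 (-0.47 ± 0.065, limma adjusted p = 0.00566). MANF was at 10.08, 10.16 and 10.14 against 10.49, 10.52 and 10.53, and HERPUD1 at 11.44, 11.43 and 11.36 against 11.92, 11.73 and 11.76 (both -0.39). SYVN1 (-0.22) and ERN1 (-0.21) were the others. No array of these 5 genes overlapped between the lines, as in 19 of the 35 genes and 30.1% of all genes tested. Leaving out each array in turn left 3 or 4 genes called, with 3 called without replicate 1 or 3 of either line. Beside these changes 4 of 6 epithelial markers were higher and 0 lower in shCDK19 cells under normal growth (median 0.27), with their summed level from 14.79 to 14.84 against 14.54 to 14.56, and their part in the result was not tested.

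Directly compared under normal growth, 13 of the 35 genes were higher in shCDK8 than in shCDK19 cells and 1 was lower, where 12.9% of all genes tested were called higher and 13.2% lower. DNAJB9 (0.84 ± 0.14), DNAJC10 (0.71 ± 0.11), XBP1 (0.40 ± 0.051) and DNAJB11 (0.40 ± 0.11) led, and SPCS3 was the lower gene (-0.32 ± 0.092). The count was 21 without shCDK8 replicate 1 (39.9% of all genes). It was between 7 and 9 without shCDK8 replicate 2 or 3 or any shCDK19 array (19.5% to 23.0% of all genes). With each array centred on its median it was 5 (20.9% of all genes). These lower counts were near or under the share of all genes. Beside these values, 11 of 16 genes of the PERK and ATF4 branch were lower in shCDK8 and 9 of 16 in shCDK19 cells than in shControl cells under normal growth, CHAC1 at -1.65 ± 0.12 and -1.90 ± 0.12. Against shControl cells 13.5% of all genes tested were called lower in shCDK8 and 3.40% in shCDK19 cells.

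Whether a knockdown acted differently in low glucose than under normal growth was tested in 1 fit of all 35 arrays. For shCDK19 the difference was called for 4 of the 35 genes, 3 lower and 1 higher, where 0.799% of all genes tested were called lower and 0.989% higher. CRELD2 was -0.84 against shControl cells in low glucose and -0.21 under normal growth, a difference of -0.64 ± 0.08 (limma adjusted p = 3.12e-05). SEL1L had -0.77 and -0.16, and PDIA4 had -0.44 and -0.08. HERPUD1 had -0.06 in low glucose and -0.39 under normal growth, a difference of 0.34 ± 0.083 that kept its call in 8 of 19 alternatives (limma adjusted p up to 0.334, and 0.06 with the replicate block). For ATF6 the 2 effects of -0.53 and -0.47 differed by -0.06, with an interval from -0.27 to 0.15. The count was 2 without shCDK19 replicate 3 under normal growth or shControl replicate 3 in low glucose, and 1 with each array centred on its median.

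For shCDK8 the difference of effects was called for 5 of the 35 genes, 1 higher and 4 lower, where 7.78% of all genes tested were called higher and 5.06% lower (12.8% together), so the share was near that of all genes. CRELD2 was 0.29 in low glucose and -0.05 under normal growth, a difference of 0.34 ± 0.08. DNAJB9 was 0.03 in low glucose and 0.61 under normal growth, a difference of -0.58 ± 0.16. DNAJC3 (-0.40), PDIA4 (-0.30) and HSP90B1 (-0.21) were the others with a lower effect in low glucose, of which DNAJC3 kept its call in 9 and HSP90B1 in 10 of 19 alternatives. Medium and experiment differ together between these effects and cannot be told apart. The count was 2 without shCDK8 replicate 3 under normal growth and with each array centred, and 3 without any of 4 other arrays: shControl replicate 1 or 2 under normal growth, shControl replicate 3 or shCDK8 replicate 1 in low glucose.

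5-Fluorouracil, an antimetabolite that inhibits thymidylate synthase, did not raise these genes to a call in the fit of the 5FU experiment alone. Of the 35 genes 0 were higher and 4 lower than in DMSO in shControl cells, where 7.17% of all genes tested were called higher and 4.29% lower (11.5% together). The share called in either direction was thus near that of all genes. In all, 17 of the 35 and 4959 of all 18404 genes had an unadjusted limma p under 0.05. HERPUD1 was at 9.87 and 9.74 after 5-fluorouracil and at 10.63 and 10.73 in DMSO (-0.88 ± 0.091, 1.84-fold lower, limma adjusted p = 0.0068). CREB3L2 was at 9.68 and 9.57 against 10.24 and 10.23 (-0.61 ± 0.073), and XBP1 at 10.17 and 9.90 against 10.51 and 10.48 (-0.46 ± 0.092). In each of these genes both treated arrays lay below both DMSO arrays. The arrays of these 2 groups did not overlap in 24 of the 35 genes and in 48.4% of all genes tested. SYVN1, at -0.37 ± 0.06, was the fourth. HSPA5 differed by -0.27 ± 0.065 without a call (limma adjusted p = 0.0549), and CRELD2 by 0.01. With 2 arrays a group the count was 0 without 5-fluorouracil replicate 2 and 2 without replicate 1, and 13 (2 higher, 11 lower; 19.2% of all genes) when all 35 arrays shared 1 estimate of the spread. Of the 16 genes of the PERK and ATF4 branch 5 rose, with SESN2 at 1.28 ± 0.07 and DDIT3 at 0.71 ± 0.15.

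With 2 arrays a group, few of the 35 genes and few of all genes were called for the knockdown lines under 5-fluorouracil. In shCDK8 cells 2 of the 35 were lower and 0 higher than in shControl cells, where 1.91% of all genes tested were called lower and 1.59% higher (3.50% together). With all 35 arrays in 1 fit 6 of the 35 genes were called, 3 higher and 3 lower, beside 9.31% of all genes. CREB3L2 was at 8.87 and 9.03 against 9.68 and 9.57 (-0.67 ± 0.073), and SYVN1 at 9.48 and 9.55 against 9.83 and 9.93 (-0.37 ± 0.06). In the same comparison 3 of 6 epithelial markers were lower and 0 higher, CDH1 at -0.94 ± 0.11 and CLDN4 at -1.32 ± 0.08, and the part of these epithelial markers was not tested. Leaving out 1 array left 0 or 1 called: 1 without shCDK8 replicate 2 and 0 without any of the other 3. In shCDK19 cells limma called 0 of the 35 genes, where 0.261% of all genes tested were called lower and 0.576% higher. Here 8 of the 35 had an unadjusted limma p under 0.05, as had 2485 of all genes, and 6 were called with all 35 arrays in 1 fit (5.80% of all genes). HERPUD1 was at 9.42 and 9.50 in shCDK19 cells, -0.34 ± 0.091 against shControl cells (limma adjusted p = 0.186). Between the knockdown lines HERPUD1 was 0.61 ± 0.091 and XBP1 0.60 ± 0.092 higher in shCDK8 cells, the 2 genes called, where 2.22% of all genes tested were called higher and 2.92% lower (5.14% together). Without any 1 of the 4 arrays 0 genes remained called in that comparison, while the fit of all 35 arrays called 10 (12.1% of all genes).

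Under hypoxia HERPUD1 was lower in the shCDK8 line than in both other lines. It was at 12.33 and 12.31 in shControl cells, 12.15 and 12.12 in shCDK19 cells and 11.42 and 11.25 in shCDK8 cells, so that the shCDK8 arrays lay well below the rest (-0.99 ± 0.09 against shControl, 1.98-fold lower, limma adjusted p = 0.0111). HERPUD1 was the 1 gene of the 35 called lower in shCDK8 than in shControl cells, and 0 were higher, where 2.49% of all genes tested were called lower and 4.81% higher (7.30% together). The share of the 35 genes called was thus near or under that of all genes. Without either shCDK8 array 0 genes were called, without shControl replicate 1 the count was 5 (10.4% of all genes) and without replicate 2 it was 12 (46.4% of all genes), and the fit of all 35 arrays called 19 (34.7% of all genes). The 2 hypoxic shControl arrays differed widely for several genes: DNAJC10 was at 9.23 and 10.10, EDEM1 at 8.68 and 9.52 and CALR at 11.94 and 12.54. DNAJC10 was at 10.82 and 10.81 in shCDK8 cells and did not pass the test (1.15 ± 0.29, limma adjusted p = 0.0895).

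In shCDK19 cells under hypoxia limma called 0 of the 35 genes, where 0.0326% of all genes tested were called lower and 0.196% higher (0.228% together). Of the 35 genes 8 had an unadjusted limma p under 0.05, as had 2438 of all genes, and the fit of all 35 arrays called 9 (14.4% of all genes). Without shControl replicate 2 the count was 7 (4 higher, 3 lower; 23.5% of all genes). DNAJB9 was at 9.44 and 9.53 in shCDK19 cells and at 8.71 and 8.92 in shControl cells (0.67 ± 0.11, limma adjusted p = 0.131). Between the knockdown lines WFS1 (0.83 ± 0.084) and UGGT1 (0.63 ± 0.10) were higher in shCDK8 cells and DNAJB9 (-0.83 ± 0.11) and HERPUD1 (-0.80 ± 0.09) lower, where 7.26% of all genes tested were called higher and 5.09% lower (12.4% together), so the share was near that of all genes. WFS1 was at 9.25 and 9.23 in shCDK8 and at 8.47 and 8.35 in shCDK19 cells. Without any 1 of these 4 arrays 0 genes were called, and the fit of all 35 arrays called 16 (32.2% of all genes). Of the PERK and ATF4 branch 6 of 16 genes were lower in shCDK8 than in shControl cells under hypoxia, with DDIT3 at -2.10 ± 0.19. In that comparison 2.49% of all genes tested were called lower and 4.81% higher. Beside the hypoxia values of shCDK8 cells 4 of 6 epithelial markers were lower and 2 higher, where CDH1 was at -1.36 ± 0.09 and EPCAM at -1.13 ± 0.09 against shControl cells, whose part in the results was not tested.

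Hypoxic and normally growing shControl cells came from different experiments, so oxygen and experiment cannot be told apart. Of the 35 genes 10 were higher and 11 lower in the hypoxic cells, where 21.1% of all genes tested were called higher and 26.7% lower (47.8% together), so the share was near that of all genes. EDEM1 was at 8.68 and 9.52 against 7.99, 7.98 and 8.05 (1.10 ± 0.15). SEC24D (0.53), HERPUD1 (0.52), HSPA5 (0.31) and SYVN1 (0.29) were also higher. DNAJC10 (-0.81), EDEM3 (-0.73), DNAJB11 (-0.45), WFS1 (-0.44) and SPCS3 (-0.44) were lower. With each array centred on its median 4 were higher and 11 lower. The median of the 35 genes was -0.01, beside 0.06 over all genes. Of 19 chaperones of the cytosol 13 were lower and 0 higher, with HSPH1 at -1.24 ± 0.08. Markers called higher in the hypoxic cells were 4 of 6 epithelial, 3 of 6 fibroblast, 1 of 5 endothelial and 1 of 5 leukocyte genes, with CD68 at 1.52 ± 0.07, and 0 were lower. The summed fibroblast level ran from 10.29 to 10.54 against 9.79 to 9.81 under normal growth, and that of leukocyte markers from 11.18 to 11.37 against 9.97 to 10.01. The part of these markers in the result was not tested.

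**Figure D4:**
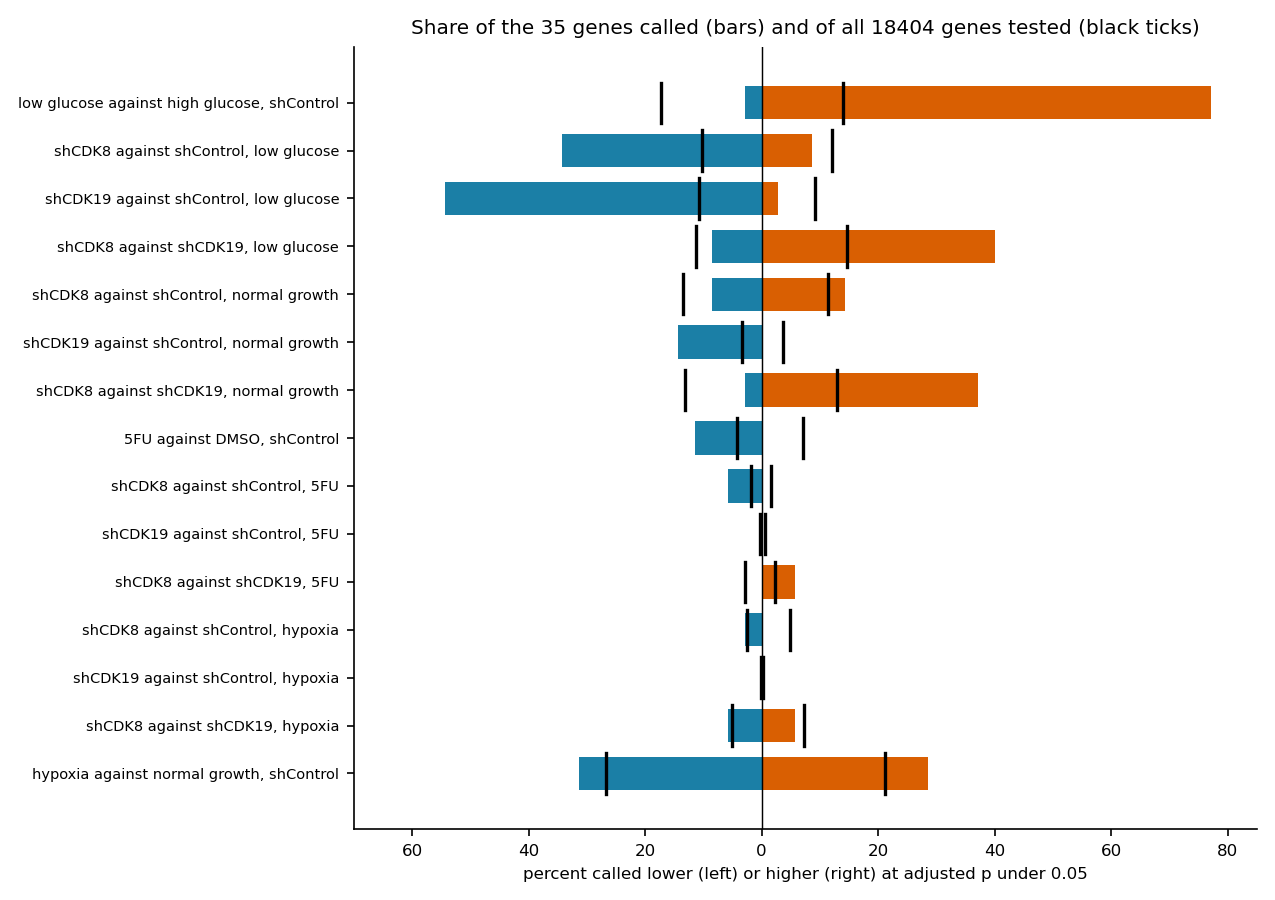
Percent of the 35 genes called higher (right) or lower (left) at adjusted p under 0.05 in each comparison (bars, x axis), with black ticks for the percent of all genes tested. The bar for low against high glucose reaches 27 of 35 genes on the right, and the bar for shCDK19 against shControl in low glucose reaches 19 of 35 on the left.

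Across all 14 groups these genes varied more than most. The range of the group means had a median of 1.37 over the 35 genes and of 0.78 over all genes tested, and of 1.01 over the 10807 genes whose mean was at or above that of the lowest of the 35. Of the 35 genes 25 (71.4%) had a range of at least 1, beside 50.6% of those 10807 genes. HERPUD1 had the widest range, 2.89, from 9.46 in shCDK19 cells with 5-fluorouracil to 12.35 in shControl cells in low glucose. EDEM1 (2.43), CREB3L2 (2.41), SEL1L (2.37) and SYVN1 (2.27) came next. CANX had the narrowest range, 0.17, with group means from 13.14 to 13.31, followed by P4HB (0.45) and HSP90B1 (0.61).

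A low glucose group held the highest mean of 27 of the 35 genes (77.1%): 16 peaked in shControl, 6 in shCDK8 and 5 in shCDK19 cells. This was so for 20.4% of all genes tested and 26.4% of the 10807 genes at or above the lowest mean of the 35. The exceptions were DNAJC10 (shCDK8, normal growth), EDEM3 (shControl, normal growth), WFS1 and DERL1 (shControl, high glucose), DERL3 (shControl, DMSO), CREB3L2 and P4HB (shControl, hypoxia) and EDEM1 (shCDK19, hypoxia). The lowest mean fell in a group of the 5FU experiment for 20 genes (57.1%), of which 3 were lowest in DMSO. It did so for 28.9% of all genes tested and 37.1% of those 10807 genes. In a hypoxia group it fell for 10 of the 35, beside 4407 of all 18404 genes and 3614 of the 10807, so the share was near that of all genes. SEL1L illustrates the order: its group means ran from 8.99 in shCDK8 cells with 5-fluorouracil to 11.35 in shControl cells in low glucose, and shControl cells had 9.37 in DMSO, 9.91 under normal growth, 10.00 in hypoxia and 10.12 in high glucose. The neighbours in this order from normal growth to high glucose did not differ beyond their spread, since the hypoxic arrays at 9.82 and 10.17 spanned both. These orders cross experiments, which cannot be told apart from the conditions.

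**Figure D5:**
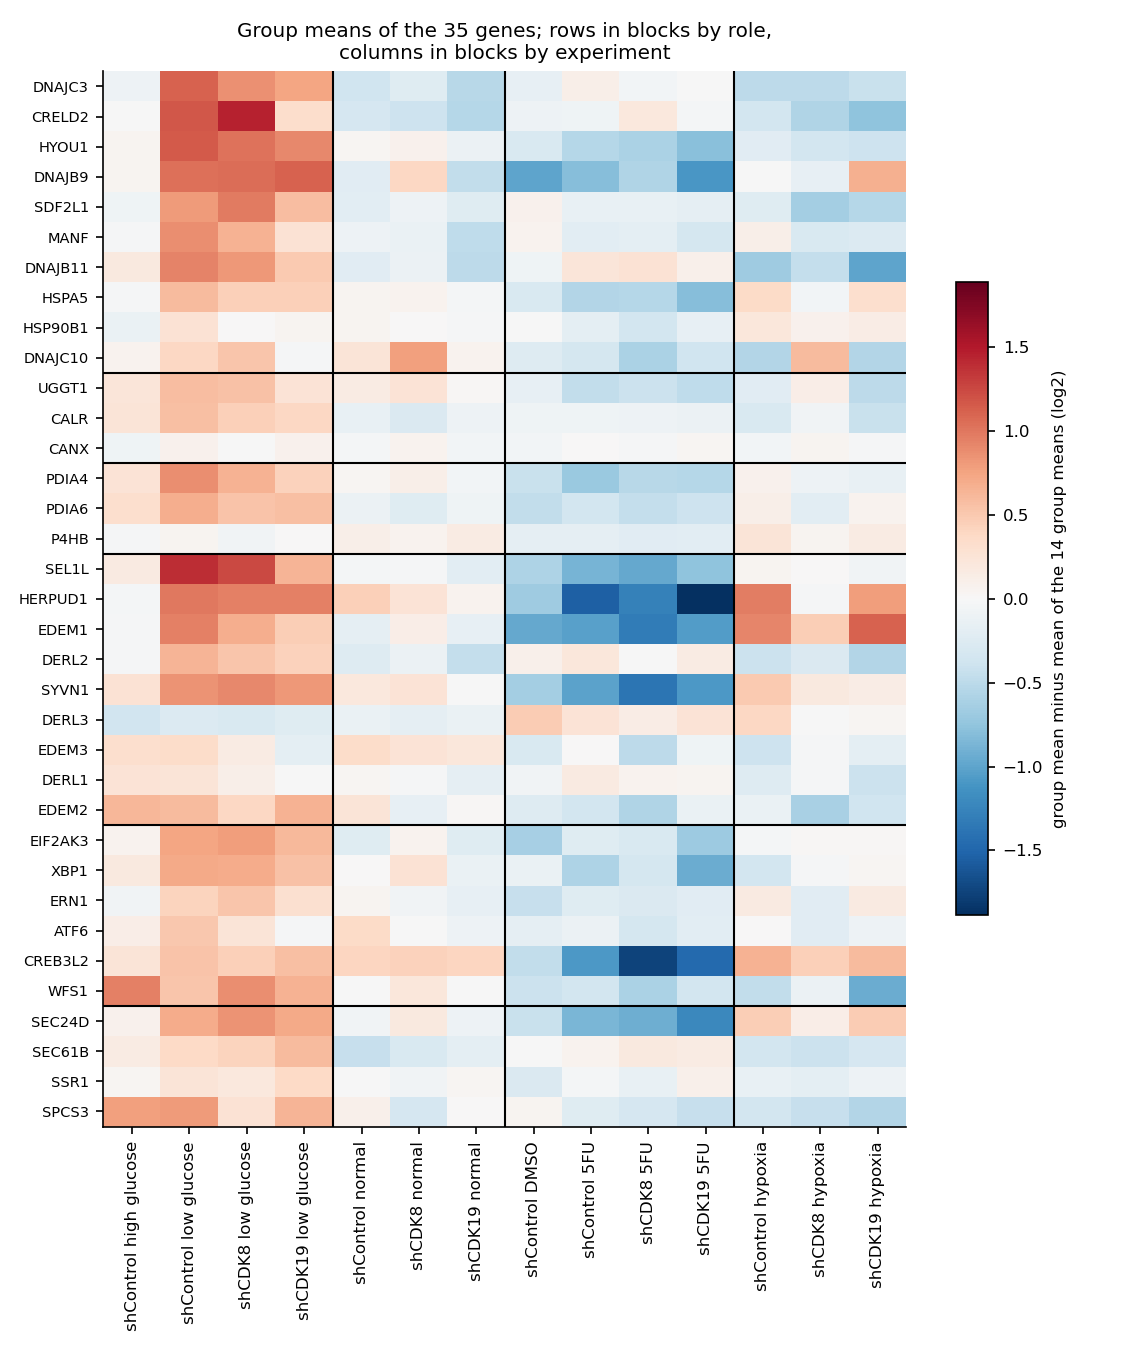
Group means of the 35 genes (rows, in blocks by role) in the 14 groups (columns, in blocks by experiment), each minus the mean of the 14 group means of its gene, on the log2 scale. The low glucose columns are red for most rows, the 5-fluorouracil columns are blue for HERPUD1, CREB3L2, SYVN1, EDEM1 and SEL1L, and the row of CANX is pale throughout.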

How the data were processed

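Total RNA was hybridised to Affymetrix HuGene 1.0 ST arrays, 1 sample per array. The deposited log2 values came from Partek, which the authors name in the submitters' processing notes. How background was corrected and how probes were summarized and normalized is not given in the sources used. The log2 scale was judged from the values, which run on every array from log2 of 20 to log2 of 20000, so the floor shortens folds of dim genes. The number of arrays limits the precision. Of 32321 rows 19158 had 1 symbol, which gave 18404 genes. Comparisons within an experiment used lmFit and eBayes of limma 3.58.1 (R 4.3.3) on its arrays. Hypoxia against normal growth and differences of effects used all 35 arrays. P-values are two-sided, Benjamini-Hochberg adjusted over all genes, threshold 0.05. The methods were tested on simulated data. Members and other gene lists were chosen with earlier results of these data known. All listed genes could be named, and of each other list up to 4 called genes per comparison with the largest change, from which the text gives some. Alternatives were centring, a filter at log2 of 6, other fits, a replicate block, row averaging and leaving out arrays. Promoter windows came from RefSeq.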

Additional observations from a re-analysis of the deposited data

Results flagged for a closer look

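The effects of a knockdown in low glucose and under normal growth differed for 9 gene and line pairs by a test of the difference itself (limma, all 35 arrays, adjusted over all genes). For shCDK8 these were HSP90B1 (-0.21, adjusted p = 0.0317), DNAJB9 (-0.58, adjusted p = 0.0171), DNAJC3 (-0.40, adjusted p = 0.0407), CRELD2 (0.34, adjusted p = 0.00455) and PDIA4 (-0.30, adjusted p = 0.00179). For shCDK19 they were CRELD2 (-0.64, adjusted p = 3.12e-05), PDIA4 (-0.35, adjusted p = 0.00237), SEL1L (-0.61, adjusted p = 0.0178) and HERPUD1 (0.34, adjusted p = 0.0325). Groups of 2 or 3 arrays allow no search for a single outlying array. CRELD2 and PDIA4 appear for both lines, which share the shControl arrays. Over the 19 alternatives of each, CRELD2 kept its call in all for both lines and PDIA4 in 18 for both. DNAJB9 kept it in 17, SEL1L in 15, HSP90B1 in 10, DNAJC3 in 9 and HERPUD1 in 8. For shCDK8 the 5 genes of 35 stand beside 12.8% of all genes called.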

How the results depend on the processing

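Counts are genes called of the 35 beside the main count. Low against high glucose (28; 27 to 30 under 7 other settings), shCDK19 in low glucose (20; 15 to 21), the direct comparison there (17; 13 to 21), shCDK8 under normal growth (8; 6 to 9) and hypoxia against normal growth (21; 15 to 22) stayed within 1.5 times. Centring each array on its median gave 6 for shCDK8 in low glucose (15), 3 for shCDK19 under normal growth (5), 5 for the direct comparison there (14), 1 for shCDK8 with 5-fluorouracil (2), 2 for shCDK8 in hypoxia (1), and 2 and 1 for the differences of effects of shCDK8 (5) and shCDK19 (4). Its split was 3 higher and 3 lower for shCDK8 under normal growth (5 and 3), 1 and 1 for shCDK8 in hypoxia (0 and 1) and for the difference of shCDK8 (1 and 4), and 0 and 1 for that of shCDK19 (1 and 3). Leaving dim genes out gave 3 for shCDK19 under normal growth, 4 for the direct comparison with 5-fluorouracil (2) and 2 for shCDK8 in hypoxia. All 35 arrays in 1 fit gave 8 for shCDK8 in low glucose, 13 for 5-fluorouracil against DMSO (4), 6 for shCDK8, 6 for shCDK19 (0) and 10 for the direct comparison with 5-fluorouracil, and 19, 9 (0) and 16 (4) for the same 3 in hypoxia. The arrays of the 2 experiments alone gave 9 for the difference of effects of shCDK8. A trended and robust variance prior gave 13 for 5-fluorouracil against DMSO, 4, 2 and 7 for the knockdowns and the direct comparison there, and 5 for shCDK8 in hypoxia. The unmoderated analysis of variance gave 0 for shCDK8 and 0 for the direct comparison with 5-fluorouracil and 2 for the direct comparison in hypoxia. Beside the centred counts of 6 for shCDK8 in low glucose and 5 for the direct comparison under normal growth, 18.0% and 20.9% of all genes were called. The cause was not tested. Whether replicate numbers pair the samples was not settled. Deviations of same-numbered arrays correlated above 0.1 in 2 of 9 pairs under normal growth and 2 of 18 in the glucose experiment. With 5-fluorouracil 6 of 12 pairs did so and in hypoxia 2 of 6. Under normal growth the correlations of same-numbered arrays ran from -0.62 to 0.367. Those of arrays with different numbers ran from -0.666 to 0.727 there, the latter for shCDK8 replicate 1 with shCDK19 replicate 3. In groups of 2 arrays the deviations mirror each other, so there each correlation is counted more than once and the check cannot decide. With the replicate block the counts were 3 for shCDK19 and 8 for the direct comparison under normal growth and 1 each for shCDK8 and the direct comparison with 5-fluorouracil, and the glucose comparison kept a count of 28.

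Leaving out 1 array at a time gave 28 to 29 for low against high glucose, 7 to 13 for shCDK8, 18 to 21 for shCDK19 and 15 to 17 for the direct comparison in low glucose. Under normal growth the counts were 4 to 12, 3 to 4 and 7 to 21 in the same order. With 5-fluorouracil they were 0 to 5 against DMSO, 0 to 1 for shCDK8, 0 to 0 for shCDK19 and 0 to 0 for the direct comparison, and in hypoxia 0 to 12, 0 to 7 and 0 to 0. Hypoxia against normal growth gave 16 to 22, and the differences of effects 2 to 6 for shCDK8 and 2 to 4 for shCDK19. Where a group was left with 1 array, that array was taken to vary like the other groups. Over all called genes and comparisons, 0 values reversed. Under the other settings 937 values kept and 113 lost their call, and with an array left out 723 kept and 184 lost it.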

Other observations

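SEC31A, a coat protein of the COPII vesicles that leave the ER, was outside the 35 genes and was lower in shCDK8 than in shControl cells in each of the 4 experiments: -1.19 ± 0.06 in low glucose, -1.08 ± 0.09 under normal growth, -1.92 ± 0.05 with 5-fluorouracil and -1.11 ± 0.13 in hypoxia (limma, each called). Against shCDK19 cells it was -1.23, -1.15, -1.85 and -1.39. Low glucose raised it by 0.49 ± 0.06 in shControl cells. It was named as a called member of a list of ER exit genes.

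CREB3L3, a transcription factor of the same family as CREB3L2 and known from liver, was 0.84 ± 0.09 higher in shCDK8 than in shControl cells under normal growth, and the effect in low glucose differed from that by -0.82 ± 0.15 (limma, both called). SVIP, an inhibitor of ER-associated degradation, was higher than in shControl cells in low glucose in both lines, by 0.56 ± 0.08 in shCDK8 and 0.54 ± 0.08 in shCDK19 cells. TXNDC12, a thioredoxin-like ER protein, was lower in both, at -0.24 ± 0.05 and -0.52 ± 0.05 respectively. The lines share the shControl arrays.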
